A study of Arabidopsis thaliana with 17 samples.

Results

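The comparison described here asks whether deleting NBR1 changed the same transcripts in the same direction in the shoots and in the roots of Arabidopsis thaliana. It used all 17 arrays of the series: 3 of KO1 shoots, 3 of KO3 shoots, 3 of Col-0 shoots, 3 of KO1 roots, 3 of KO3 roots and 2 of Col-0 roots (replicates 1 and 3). KO1 and KO3 are homozygous lines with CRISPR/Cas9 deletions in NBR1 (AT4G24690) from which the transgene was crossed out, and Col-0 is the parental accession. Each KO genotype is 1 deletion line. All plants were 4 weeks old, grew hydroponically in short days and were divided into shoot and root, and each RNA sample came from parts of at least 3 plants. The labels do not say whether the replicates of a group came from separate cultures, so the p-values measure the spread between these samples. The shared effect in an organ was the mean of KO1 and KO3 minus Col-0, on the log2 scale. The organ difference was the shared effect in shoots minus the shared effect in roots, so that a negative value means that the KO plants stood lower against Col-0 in shoots than in roots. It was tested on all 18107 probe sets with a gene name, and the genes described here are the 66 that passed.

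NBR1 is a selective autophagy receptor: it binds ubiquitinated cargo and the ATG8 proteins of the growing autophagosome, and so delivers the cargo for breakdown in the vacuole. Shoots and roots of one plant differ in cell types, light exposure and nutrient uptake, and many genes are read in one organ and nearly silent in the other. The plant circadian clock, hormone signalling and nutrient responses are also known to run differently in the 2 organs, as general background.

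The arrays matched their organ labels. The 11 measured light-harvesting and photosynthesis genes summed to linear signals of 2420 to 8020 on the shoot arrays and of 38 to 86.5 on the root arrays, and the 9 measured root markers to 880 to 1410 on root arrays and 44.9 to 113 on shoot arrays. The array medians lay between 1.72 and 1.85 (log2) in shoots and between 2.61 and 2.67 in roots, so signals were compared within an organ and never between organs. Replicate 1 of KO1 shoots stood apart, with a standard deviation of its log2 signals of 1.41, while the other shoot arrays had 1.94 to 2.07. Its mean correlation with the arrays of its organ was 0.934, where the others had 0.971 to 0.976. Replicate 1 of Col-0 roots had the lowest mean correlation of the root arrays, 0.978 against 0.983 to 0.987. Array data carry no count depth, and the number of arrays limits the precision.

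The deleted gene was lower in both organs. NBR1 had signals of 1.52 to 1.81 on the 6 KO shoot arrays and 5.73 to 6.44 on the 3 Col-0 shoot arrays, and of 3.26 to 4.59 on the 6 KO root arrays and 7.23 and 7.41 on the 2 Col-0 root arrays. Its KO signals in shoots lay below the array medians, which limits how large a fall could be measured there. The shared effect was -4.53 (standard error 0.19) in shoots and -3.5 (standard error 0.22) in roots, and the organ difference of -1.03 (standard error 0.29) did not pass the test (adjusted p = 0.203, limma). That value depended on the scaling: it was 0.20 (adjusted p = 0.884) with quantile normalization over all arrays and -2.49 (adjusted p = 0.00103) with the arrays scaled to the same spread. NBR1 and GI were the 2 probe sets past an adjusted p of 0.05 in both shared effects, NBR1 with the same sign and GI with opposite signs.

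The shared effect differed between the organs for 66 of the 18107 probe sets (0.364%) at an adjusted p under 0.05 (limma, Benjamini-Hochberg over all probe sets tested). Of these, 61 (0.337%) were lower and 5 (0.0276%) were higher in shoots relative to roots. At an unadjusted p under 0.05 there were 1617 (8.93%), 535 higher (2.95%) and 1082 lower (5.98%). The number and its split rested on single arrays. It was 207 (52 higher, 155 lower) without replicate 1 of KO1 shoots, all of the 66 among them, and 19 (0 higher, 19 lower) without replicate 1 of Col-0 roots. Without replicate 3 of Col-0 roots it was 68 (23 higher, 45 lower), of which 30 were among the 66. It was 43 without replicate 2 of KO3 shoots, 41 without replicate 1 of Col-0 shoots and 37 without replicate 3 of Col-0 shoots. Quantile normalization gave 40 higher and 83 lower over all arrays, and 49 higher and 110 lower within each organ. Just inside the threshold lay AT5G01260 (-1.54, adjusted p = 0.0482) and AT1G13650 (1.68, adjusted p = 0.0482), and just outside it TBL19 (-1.05, adjusted p = 0.051) and AT4G33560 (-0.73, adjusted p = 0.0511).

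The 66 genes were sorted by the effects of each line. In the opposite class, both lines changed by at least 1.5-fold with one sign in shoots and at least 1.5-fold with the other sign in roots. In the shoot-limited class, the shared shoot effect passed the test, both lines changed by at least 1.5-fold with the same sign in shoots, and both stayed under 1.5-fold in roots; the root-limited class exchanged the organs. There were 6 opposite genes, 49 shoot-limited genes (47 lower and 2 higher in the KO plants), 8 root-limited genes (2 lower and 6 higher) and 3 others. Without replicate 1 of Col-0 roots there were 1 opposite gene, 17 shoot-limited genes (all lower) and 0 root-limited genes. Without replicate 3 of Col-0 roots there were 10 opposite, 16 shoot-limited (all lower) and 29 root-limited genes, of which 20 were lower and 9 higher, the other way round from the split with all arrays. There were, without replicate 1 of KO1 shoots, 10 opposite, 127 shoot-limited (99 lower and 28 higher) and 32 root-limited genes (12 lower and 20 higher). The opposite genes were 3 without replicate 3 of Col-0 shoots, and the root-limited genes were 5, 4 and 2 without replicates 1, 2 and 3 of Col-0 shoots and 5 without replicate 2 of KO3 shoots. For all 66, KO1 and KO3 had organ differences of the same sign, each at an unadjusted p under 0.05. Both lines were set against the same Col-0 arrays, so this is not a count of independent repeats. In an exact two-sided permutation test for each gene, which exchanged KO and Col-0 labels within each organ (2352 arrangements, smallest possible p = 0.000425), the p-values of the 66 ran from 0.000425 to 0.0514. The 66 had been selected by this same difference on these same arrays. Small p-values were therefore built in, and they are no separate support.

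**Figure D1:**
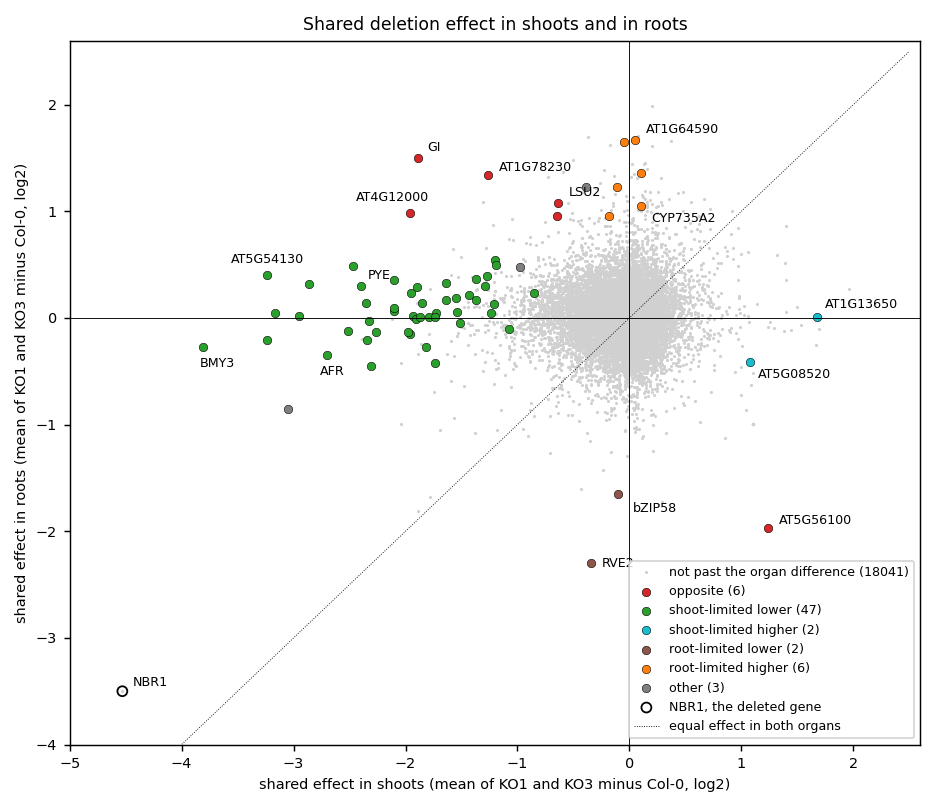
Each point is 1 of the 18107 probe sets, with the shared effect in shoots on the x axis and in roots on the y axis (mean of KO1 and KO3 minus Col-0, log2); colours mark the classes of the 66 genes past the organ difference, and the dotted line marks equal effects. The 47 shoot-limited lower genes form a band near a root effect of 0, GI lies far to the upper left, AT5G56100 to the lower right, and NBR1 is low on both axes.

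GI, also known as GIGANTEA, a clock-associated gene that promotes flowering in long days, had the largest organ difference of the opposite genes. In shoots its signals were 2.96, 4.19 and 4.04 on the KO1 arrays and 4.82, 4.29 and 4.31 on the KO3 arrays, against 6.02, 5.92 and 6.05 on the Col-0 arrays. In roots they were 6.87, 6.99 and 7.08 in KO1 and 6.99, 6.92 and 6.91 in KO3, against 5.22 and 5.70 in Col-0. Every KO array was below every Col-0 array in shoots and above both in roots, and the groups did not overlap in either organ. Over all probe sets, all 6 KO arrays lay below all Col-0 arrays for 3.71% in shoots and 5.5% in roots, and above them for 0.933% in shoots and 5.82% in roots. The shared effect of GI was -1.89 in shoots (standard error 0.22, adjusted p = 0.000183), a 3.72-fold fall, and 1.5 in roots (standard error 0.25, adjusted p = 0.0269), a 2.83-fold rise. Its organ difference was -3.40 (standard error 0.33, adjusted p = 0.000361), and it passed without any single array, with values from -3.64 to -3.15. The fall in shoots also passed each time, but the rise in roots did not pass without replicate 1 of Col-0 roots (1.26, adjusted p = 0.612) or without replicate 2 of KO1 roots, replicate 1 of KO3 roots or replicate 3 of KO3 roots. KO1 had the larger fall in shoots (-2.27, and -1.52 in KO3), while the rises in roots were 1.52 in KO1 and 1.48 in KO3.

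AT4G12000, annotated as a member of the SNARE-associated Golgi protein family, followed the same direction. Its shoot signals were 2.33, 3.00 and 2.68 in KO1 and 4.01, 3.3 and 3.59 in KO3, against 5.15, 5.24 and 4.93 in Col-0, and its root signals were 4.93, 5.03 and 4.42 in KO1 and 4.16, 4.78 and 4.50 in KO3, against 3.32 and 3.99 in Col-0. The groups did not overlap in either organ. The fall in shoots passed the test (-1.96, standard error 0.21, adjusted p = 0.000107), and the root estimate of 0.98 did not (standard error 0.25, adjusted p = 0.168). The organ difference was -2.94 (standard error 0.33, adjusted p = 0.000644) and held without any single array. It was larger in KO1 (-3.58) than in KO3 (-2.3), with an unadjusted p for that difference of 0.00227.

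In the other 4 opposite genes neither shared effect passed the test by itself, and the call was on the organ difference. AT1G78230, which has only a locus name here, had 4.31 to 5.57 on the KO shoot arrays and 6.16 to 6.51 on the Col-0 shoot arrays, and 3.69 to 5.50 on the KO root arrays and 3.19 and 3.31 on the Col-0 root arrays. Its groups did not overlap, and its organ difference was -2.6 (standard error 0.46, adjusted p = 0.0214). It did not pass without replicate 1 of Col-0 roots (adjusted p = 0.207), replicate 3 of Col-0 roots (0.0681), replicate 1 of Col-0 shoots (0.0524) or replicate 3 of Col-0 shoots (0.0752). AT1G20070, also without a symbol, had 1.58 to 2.06 on KO shoot arrays and 2.21 to 2.87 on Col-0 shoot arrays, and 5.60 to 5.97 on KO root arrays and 4.77 and 4.84 on Col-0 root arrays. Its groups did not overlap either, and the difference of -1.61 (standard error 0.24, adjusted p = 0.0059) was lost only without replicate 1 of Col-0 roots (adjusted p = 0.0715).

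LSU2, named for its response to low sulphur, had 2.33, 2.3 and 2.49 in KO1 shoots and 2.5, 1.97 and 2.42 in KO3 shoots, against 3.48, 2.43 and 3.00 in Col-0 shoots. Its root signals were 3.61, 3.96 and 4.23 in KO1 and 3.5, 3.99 and 3.5 in KO3, against 2.68 and 2.76 in Col-0. The KO arrays overlapped with Col-0 in shoots and were all above it in roots. For LSU2 the organ difference was -1.71 (standard error 0.32, adjusted p = 0.0282), from a shoot estimate of -0.64 and a root estimate of 1.08. It did not pass when any 1 of 7 arrays was left out: replicates 2 and 3 of KO1 roots, replicates 1 and 3 of Col-0 roots, replicate 2 of KO3 shoots and replicates 1 and 3 of Col-0 shoots, with adjusted p-values up to 0.255.

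AT5G56100, annotated as a glycine-rich protein of the oleosin type, was the opposite gene that ran the other way. In shoots it had 2.02, 3.82 and 4.29 in KO1 and 3.18, 3.42 and 3.97 in KO3, against 2.36, 2.00 and 2.27 in Col-0. In roots it had 2.96, 3.11 and 2.34 in KO1 and 2.43, 3.26 and 3.11 in KO3, against 5.28 and 4.4 in Col-0. Replicate 1 of KO1 shoots lay inside the Col-0 range, the other 5 KO shoot arrays were above it, and in roots all KO arrays were below Col-0. AT5G56100 had an organ difference of 3.21 (standard error 0.60, adjusted p = 0.0285), with estimates of 1.24 in shoots and -1.97 in roots. It was lost without any 1 of 10 arrays, with the highest adjusted p of 0.339 without replicate 1 of Col-0 roots; the others were replicates 1 and 3 of KO1 roots, replicates 1 and 3 of KO3 roots, replicates 2 and 3 of KO3 shoots and all 3 Col-0 shoot arrays.

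**Figure D2:**
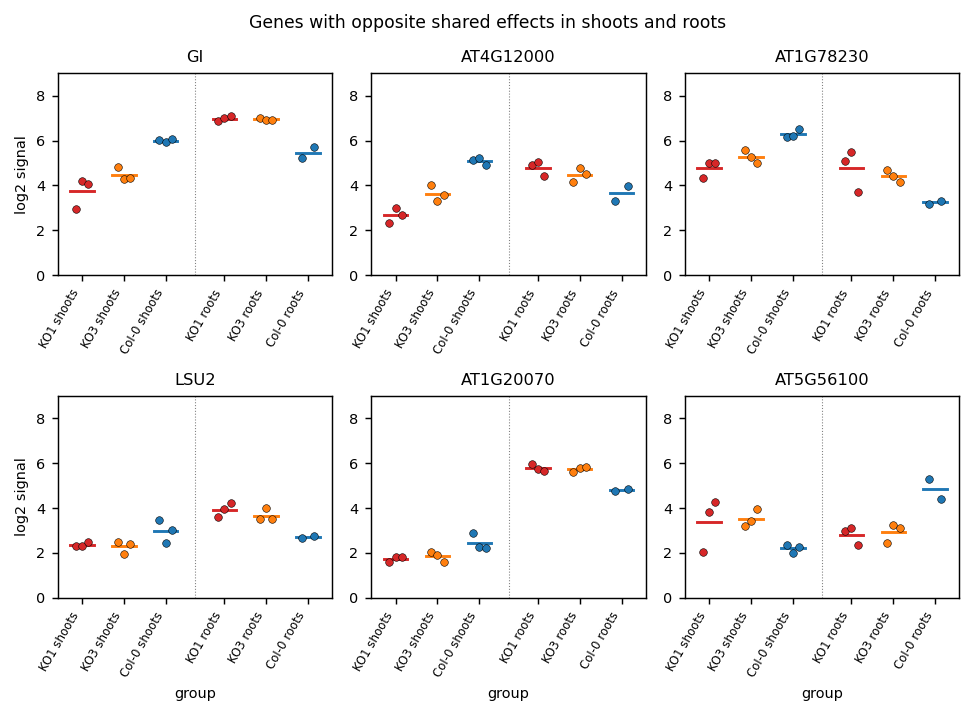
RMA log2 signal of the 6 opposite genes on each array (points) with the group mean (bar); KO1 is red, KO3 orange and Col-0 blue, with shoots left and roots right of the dotted line. GI shows KO points from 2.96 to 4.82 below Col-0 in shoots and from 6.87 to 7.08 above Col-0 in roots, and AT5G56100 shows the reverse pattern with 1 KO1 shoot array inside the Col-0 range.

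The largest class was the 47 genes that were lower in KO shoots with no such change in KO roots. Their shared effects in shoots ran from -3.81 to -0.85, with a median of -1.90, and their root estimates from -0.45 to 0.54, with a median of 0.06. Over all probe sets, every KO array lay below every Col-0 array for 3.71% in shoots and 5.5% in roots, and above for 5.82% in roots. All 47 had every KO shoot array below every Col-0 shoot array, while 7 of the 47 also had groups that did not overlap in roots. The class was defined by both effects, so these values describe it and do not test it. The root estimate was positive in 32 genes and negative in 15, and its 95% confidence interval lay within 1.5-fold in either direction for 15 of the 47. For the other 32 the interval still held a root effect of 1.5-fold. Root signals lay below the array median on every root array for 19 genes, above it on every root array for 24 and on both sides for 4. For the 19, a fall in roots would have been hard to see at so low a signal. The 47 became 17 without replicate 1 of Col-0 roots, 16 without replicate 3 of Col-0 roots, 31 without replicate 1 of KO1 roots, 30 without replicate 1 of Col-0 shoots, 29 without replicate 3 of Col-0 shoots and 99 without replicate 1 of KO1 shoots.

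**Figure D3:**
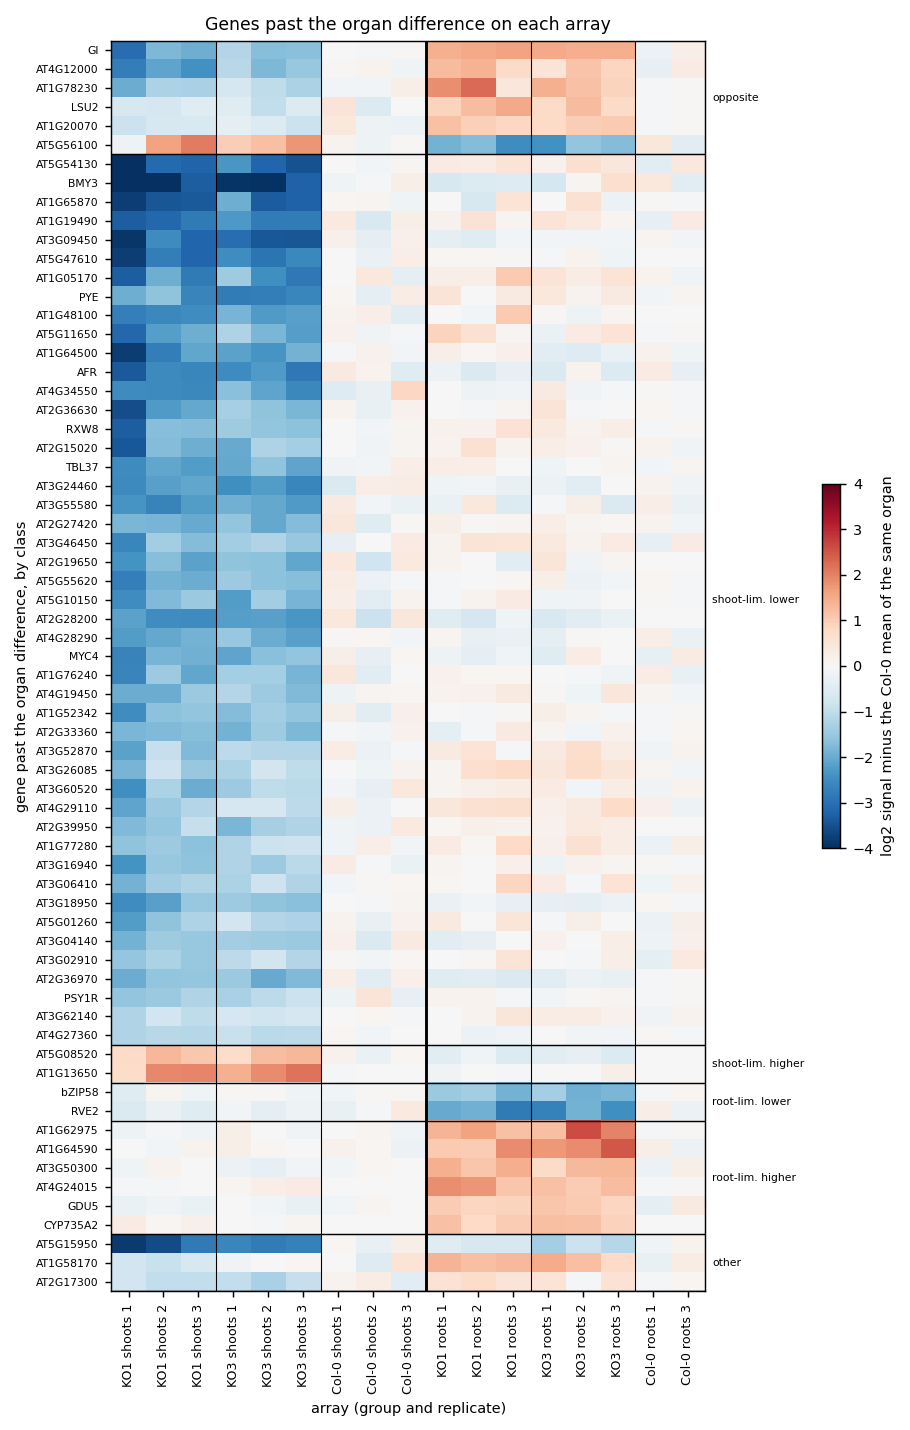
Log2 signal of the 66 genes past the organ difference on each of the 17 arrays, as the difference from the mean of the Col-0 arrays of the same organ (blue lower, red higher); rows are grouped by class and columns by group, shoots left of the thick line. The 47 shoot-limited lower genes are blue on all 6 KO shoot arrays and pale on the root arrays.

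BMY3, or BETA-AMYLASE 9, a member of the starch-degrading beta-amylase family that is itself known as inactive, had the largest fall of the class. Its shoot signals were 1.85, 2.07 and 2.90 in KO1 and 2.28, 2.25 and 2.96 in KO3, against 6.02, 6.12 and 6.43 in Col-0, with a wide gap between the groups. Its root signals were 3.44, 3.52 and 3.55 in KO1 and 3.36, 4.19 and 4.75 in KO3, against 4.49 and 3.66 in Col-0, and these overlapped. The shoot effect of -3.81 (standard error 0.29) was a 14-fold fall, the root estimate was -0.27 (standard error 0.34), and the organ difference was -3.53 (standard error 0.45, adjusted p = 0.00197).

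PYE, or POPEYE, a bHLH factor that restrains part of the iron-deficiency response, had 3.28, 3.6 and 2.59 in KO1 shoots and 2.42, 2.45 and 2.6 in KO3 shoots, against 5.30, 4.85 and 5.51 in Col-0 shoots. In roots, where PYE is best known, it had 3.17, 2.67 and 3.01 in KO1 and 3.08, 2.79 and 3.01 in KO3, against 2.55 and 2.77 in Col-0. The shoot groups were well separated and the root groups overlapped, at signals close to the root array medians. PYE had an organ difference of -2.69 (standard error 0.30, adjusted p = 0.000644), with a shoot effect of -2.40 and a root estimate of 0.30. The organ difference was larger in KO1 than in KO3 for 39 of the 47 genes of the class, and PYE was among the others (-2.35 in KO1 and -3.03 in KO3).

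AFR, an F-box protein gene of phytochrome A signalling in far-red light, had 3.63 to 4.72 on the KO shoot arrays and 6.51 to 7.36 on the Col-0 shoot arrays, and 2.39 to 3.13 on the KO root arrays and 2.64 and 3.32 on the Col-0 root arrays. Its shoot effect was -2.70 and its root estimate -0.35, with an organ difference of -2.35 (standard error 0.37, adjusted p = 0.0114) that was lost without replicate 3 of Col-0 roots (adjusted p = 0.0689). AFR had 1 other probe set, which was not among those past the organ difference, so the values given here are those of the passing probe set. MYC4, a bHLH factor of jasmonate signalling, had 3.1 to 4.19 on the KO shoot arrays and 5.44 to 6.0 on the Col-0 shoot arrays. The root signals of MYC4 overlapped, at 3.86 to 4.64 in the KO plants and 4.02 and 4.66 in Col-0. Its organ difference was -1.81 (standard error 0.34, adjusted p = 0.0305), and it did not pass when any 1 of 9 arrays was left out, all 3 of KO1 roots, replicates 2 and 3 of KO3 roots, replicate 1 of Col-0 roots, replicate 2 of KO3 shoots and replicates 1 and 3 of Col-0 shoots, with adjusted p-values up to 0.373.

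Among the genes with only a locus name, AT5G54130 had the largest organ difference of all 66, -3.65 (standard error 0.41, adjusted p = 0.000644). Its shoot signals were 4.11, 5.18 and 5.10 in KO1 and 5.97, 5.12 and 4.80 in KO3, against 8.31, 8.17 and 8.39 in Col-0, and its root signals were 6.82 to 7.28 in the KO plants, against 6.21 and 7.08 in Col-0. This gene was clearly read in roots, and its KO and Col-0 root arrays overlapped. AT1G19490 (-3.18, standard error 0.34) was likewise above the array median on all root arrays, at 3.47 to 3.94 in the KO plants and 3.05 and 3.68 in Col-0. AT1G05170 (-2.97, standard error 0.49) had 3.58 to 4.39 on KO root arrays and 3.48 and 3.21 on Col-0 root arrays, a gap too small for the test (root estimate 0.49, adjusted p = 0.905); without replicate 1 or replicate 3 of Col-0 roots its organ difference had adjusted p-values of 0.106 and 0.0681.

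For 4 further genes of the 12 with the lowest organ differences, root signals were below the array median on every root array. AT5G47610 had 2.67 to 3.95 on KO shoot arrays and 6.17 to 6.72 on Col-0 shoot arrays, and 0.92 to 1.24 on KO root arrays and 1.09 and 1.11 on Col-0 root arrays. AT3G09450 had 2.19 to 3.56 in KO shoots and 5.68 to 6.29 in Col-0 shoots, and AT1G65870 had 3.0 to 4.81 in KO shoots and 6.57 to 6.86 in Col-0 shoots. In each of them the KO and Col-0 shoot arrays were apart, while the root arrays overlapped. AT1G48100, annotated as a polygalacturonase, an enzyme class that cuts pectin of the cell wall, had 2.29 to 3.18 in KO shoots and 4.62 to 5.30 in Col-0 shoots. Their organ differences were -2.97 in AT5G47610, -3.03 in AT3G09450, -3.22 in AT1G65870 and -2.49 in AT1G48100, and each passed without any single array.

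Other shoot-limited genes with a known role, chosen after their values were seen, included TBL37, of a family that acetylates cell wall polysaccharides, and PSY1R, the receptor-like kinase named for the sulphated peptide PSY1. TBL37 had 3.59 to 4.51 in KO shoots and 5.96 to 6.37 in Col-0 shoots, and 5.04 to 5.48 in KO roots and 5.10 and 5.32 in Col-0 roots, with an organ difference of -2.17 (standard error 0.23, adjusted p = 0.000574). Its root interval of -0.30 to 0.44 was within 1.5-fold. PSY1R had 1.90 to 2.61 in KO shoots and 3.15 to 3.98 in Col-0 shoots, and 4.46 to 4.70 in KO roots and 4.51 and 4.61 in Col-0 roots, with an organ difference of -1.29 (standard error 0.25, adjusted p = 0.0402). Both genes were measured well in roots, and their root arrays overlapped.

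AT5G08520 and AT1G13650 were the 2 genes higher in KO shoots without such a change in KO roots. AT5G08520 had 3.69 to 4.28 on KO shoot arrays and 2.69 to 3.13 on Col-0 shoot arrays, and 4.49 to 4.88 on KO root arrays and 5.04 and 5.06 on Col-0 root arrays. Its groups did not overlap in either organ, but the root estimate of -0.41 did not pass (adjusted p = 0.635), while the shoot effect of 1.08 did (adjusted p = 0.00173). The organ difference of AT5G08520 was 1.49 (standard error 0.24, adjusted p = 0.0129), with adjusted p-values of 0.117 without replicate 1 and 0.0547 without replicate 3 of Col-0 roots. AT1G13650 had 2.97 to 4.39 on KO shoot arrays and 2.2 to 2.26 on Col-0 shoot arrays, and had 1.04 to 1.4 on KO root arrays and 1.16 and 1.2 on Col-0 root arrays, below the array medians. Its shoot effect was 1.68 (standard error 0.22), and its organ difference of 1.68 (standard error 0.34, adjusted p = 0.0482) was lost without any single array other than replicate 1 of KO1 shoots or replicate 1 of KO3 shoots, with adjusted p-values up to 0.297.

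RVE2, or REVEILLE 2, a MYB-like factor of the clock family, had the largest root-limited fall. Its root signals were 5.70, 5.80 and 4.88 in KO1 and 5.0, 5.81 and 5.27 in KO3, against 7.96 and 7.46 in Col-0. In shoots it had 1.00, 1.31 and 1.08 in KO1 and 1.45, 1.19 and 1.37 in KO3, against 1.27, 1.49 and 1.96 in Col-0. All KO root arrays were below both Col-0 root arrays, whereas the shoot arrays overlapped at low signals. The root effect was -2.3 (standard error 0.26, adjusted p = 0.00142), a 4.92-fold fall, and the organ difference was 1.96 (standard error 0.34, adjusted p = 0.021). Without replicate 1 of Col-0 roots the adjusted p of RVE2 was 0.263, and it was 0.0712 without replicate 1 and 0.0502 without replicate 2 of Col-0 shoots. bZIP58, a basic leucine-zipper factor, had 6.93, 7.03 and 6.51 on the KO1 root arrays and 7.04, 6.48 and 6.60 on the KO3 root arrays, against 8.33 and 8.50 on the Col-0 root arrays, and 1.13 to 1.73 in KO shoots and 1.5 to 1.67 in Col-0 shoots. Its root groups were apart and its shoot groups overlapped. Its shoot signals lay below the array median on every shoot array, so a fall there could hardly be measured. The root effect of bZIP58 was -1.65 (standard error 0.18, adjusted p = 0.00142) and the organ difference 1.55 (standard error 0.24, adjusted p = 0.011); without replicate 1 and without replicate 3 of Col-0 roots the adjusted p was 0.0681 and 0.0547. Neither root effect passed without replicate 1 of Col-0 roots (-2.05, adjusted p = 0.0779 for RVE2, and -1.73, adjusted p = 0.0601 for bZIP58).

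The 6 genes higher in KO roots were all below the array median on every shoot array, so that a change in shoots could hardly be measured. None of their 6 root effects passed without replicate 1 of Col-0 roots, with adjusted p-values from 0.0779 to 0.617. CYP735A2, the cytochrome P450 that makes trans-zeatin-type cytokinins, had 5.76, 5.39 and 5.62 on the KO1 root arrays and 5.79, 5.76 and 5.51 on the KO3 root arrays, against 4.60 and 4.58 on the Col-0 root arrays. Its shoot signals were 1.12 to 1.52 in the KO plants and 1.19 to 1.22 in Col-0, and these overlapped. The root effect of CYP735A2 was 1.05 (standard error 0.13, adjusted p = 0.00219), a 2.07-fold rise, and the organ difference was -0.95 (standard error 0.17, adjusted p = 0.0214). That call was lost without replicate 1 of Col-0 roots (adjusted p = 0.156), replicate 3 of Col-0 roots (0.0703), replicate 1 of Col-0 shoots (0.0641) or replicate 3 of Col-0 shoots (0.0573).

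GDU5, or GLUTAMINE DUMPER 5, of a family whose overexpression makes plants export amino acids, had 3.17, 3.02 and 3.06 on the KO1 root arrays and 3.28, 3.21 and 3.02 on the KO3 root arrays, against 1.82 and 2.51 on the Col-0 root arrays. Its root groups did not overlap, and its 2 Col-0 values lay further apart than all 6 KO values. The organ difference of GDU5 was -1.14 (standard error 0.21, adjusted p = 0.0283), and it was -0.79 (adjusted p = 0.297) without replicate 1 of Col-0 roots; 9 other arrays also ended the call when left out, with adjusted p-values up to 0.0823, and so did the replicate number as a block (-1.12, adjusted p = 0.0573).

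The other 4 genes of this class have only a locus name here. AT4G24015 had 5.48 to 6.32 in KO roots and 4.44 and 4.51 in Col-0 roots (root effect 1.36, standard error 0.16). AT3G50300 had 2.89 to 3.57 in KO roots and 1.87 and 2.36 in Col-0 roots (root effect 1.23, standard error 0.17). In both, all 6 KO root arrays were above Col-0. AT1G62975 had 4.99 to 6.44 in KO roots and 3.78 and 3.88 in Col-0 roots (root effect 1.65, standard error 0.25). AT1G64590 had 4.58 to 6.06 in KO roots and 3.81 and 3.35 in Col-0 roots (root effect 1.67, standard error 0.24). These also did not overlap, with a wider spread among the KO arrays. The organ difference did not pass without 3 arrays in turn for AT4G24015, 2 for AT3G50300, 12 for AT1G62975 and 9 for AT1G64590. The highest of their adjusted p-values in that test, 0.297, was that of AT1G62975 without replicate 1 of Col-0 roots.

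**Figure D4:**
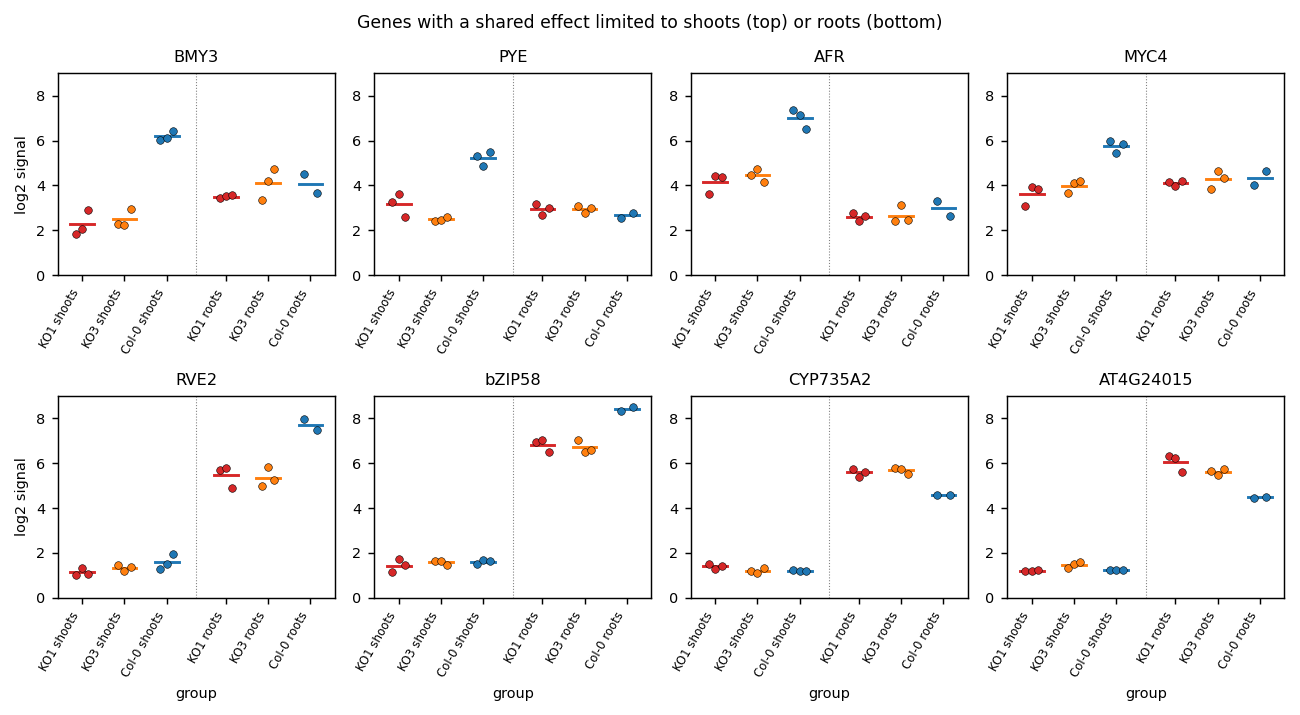
RMA log2 signal on each array (points) and group mean (bar) for 4 shoot-limited genes (BMY3, PYE, AFR and MYC4) and 4 root-limited genes (RVE2, bZIP58, CYP735A2 and AT4G24015), with KO1 in red, KO3 in orange and Col-0 in blue. The KO points stand below Col-0 in shoots alone in the top row, for example 1.85 to 2.96 against 6.02 to 6.43 for BMY3, and the root-limited genes have shoot signals under 2 in every line.

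The 3 genes of no class were AT5G15950, AT1G58170 and AT2G17300. AT5G15950 had 2.68, 2.93 and 3.70 in KO1 shoots and 3.91, 3.72 and 3.82 in KO3 shoots, against 6.58, 6.21 and 6.75 in Col-0 shoots, and 4.19, 4.04 and 4.05 on the KO1 root arrays and 3.31, 3.83 and 3.53 on the KO3 root arrays, against 4.53 and 4.83 on the Col-0 root arrays. Its KO arrays were below Col-0 in both organs, and the gap was the larger in shoots: 8.30-fold, against an estimate of 1.81-fold in roots (adjusted p = 0.196). The organ difference of AT5G15950 was -2.2 (standard error 0.30, adjusted p = 0.00298), and its permutation p of 0.0514 was the highest of the 66. AT1G58170 had a root estimate of 1.23 and shoot estimates of -0.76 in KO1 and -0.01 in KO3, so that the lines differed in shoots, and AT2G17300 had a shoot effect of -0.98 with a root estimate of 0.48.

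Few changes passed in both organs. The shared effect in shoots passed for 274 probe sets (1.51%), 251 lower (1.39%) and 23 higher (0.127%), and the shared effect in roots for 27 (0.149%), 9 lower (0.0497%) and 18 higher (0.0994%). At an unadjusted p under 0.05 there were 1817 in shoots (10%), 1421 of them lower (7.85%), and 1335 in roots (7.37%), 677 of them lower (3.74%). Both splits moved with the scaling and with single arrays. The shoot calls were 307 lower and 138 higher with quantile normalization over all arrays, 321 lower and 169 higher with it within each organ, 394 lower and 139 higher with array weights, and 389 lower and 171 higher without replicate 1 of KO1 shoots. In the root calls the majority turned round, with 55 lower and 42 higher under quantile normalization over all arrays, 61 lower and 55 higher with it within each organ, 61 lower and 38 higher without replicate 3 of Col-0 roots, and 80 lower and 79 higher without replicate 1 of KO1 shoots. The 251 shoot falls had a median shoot effect of -1.15 and a median root estimate of -0.04 (quartiles -0.21 and 0.14), against 0.00 (quartiles -0.13 and 0.14) over all probe sets tested, and the root estimate was negative for 146 and positive for 105. Of the 251, 51 also passed the organ difference; for the other 200 the 2 organs were not shown to differ. The 23 shoot rises had a median root estimate of 0.01. The 18 root rises had a median root effect of 1.33 and a median shoot estimate of 0.10, positive in 14, and the 9 root falls a median root effect of -1.43 and a median shoot estimate of -0.10. Of the 27 root calls, 9 passed the organ difference. The number of root calls was 1 without replicate 1 of Col-0 roots, namely NBR1, 99 without replicate 3 of Col-0 roots and 159 without replicate 1 of KO1 shoots, an array that entered the root test only through the shared estimate of the spread. The number of shoot calls was 560 without replicate 1 of KO1 shoots, and 158, 178 and 144 without replicates 1, 2 and 3 of Col-0 shoots.

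The lines did not differ in their organ differences at the threshold: 0 probe sets passed the test of KO1 against KO3 (limma), while 1003 (5.54%) had an unadjusted p under 0.05, 173 higher (0.955%) and 830 lower (4.58%) in KO1. Leaving out replicate 2 of KO1 shoots or replicate 3 of KO3 shoots gave 1 call each. Among the 66 genes, KO1 had the larger organ difference in 49 and KO3 in the others, and 17 had an unadjusted p under 0.05 for the difference between the lines. Without replicate 1 of KO1 shoots these counts were 47 and 8 of the 66, and 805 probe sets in all were under 0.05.

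Of 21 gene lists with a measured member, 6 held genes past the organ difference. Over all 18107 probe sets 66 passed (0.364%), so 0 is the usual count for lists as short as these. A member counted as measured if a probe set was named for that gene alone, and each list was measured only in part. The circadian clock list held 27 genes, of which 9 were measured, and 6 of these did not pass. RVE2 passed with a positive organ difference, and GI and AFR passed with negative ones. The other probe set of AFR was not among those that passed. The members that passed went in both directions, and the list median of -0.14 was near the -0.04 of all 18107 probe sets, of which 10179 were negative. TOC1, an evening gene of the core clock, had a shoot estimate of 0.30 and a root estimate of 0.33, and PRR5, a repressor of morning genes, had -0.29 in shoots and 0.27 in roots (organ difference -0.56, unadjusted p = 0.0196, adjusted p = 0.429). The lists of iron deficiency, sulphur deficiency, jasmonate, darkness and senescence, and cytokinin response each held 1 gene past the test, with a negative organ difference. These genes were PYE of 12, LSU2 of 5, MYC4 of 12, BMY3 of 10 and CYP735A2 of 9 measured members. The same lists held 50, 34, 52, 31 and 40 genes, so the counts describe the measured members and not the pathways. RVE2, LSU2, BMY3 and CYP735A2 were measured only because the study's lists of genes changed by NBR1 overexpression named them. The negative value of CYP735A2 came from a rise in roots (1.05), with a shoot estimate of 0.10.

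In the cytokinin response list all 9 measured members had negative organ differences, with a list median of -0.71, a median shoot estimate of 0.10 and a median root estimate of 0.82. By comparison, 10179 of the 18107 probe sets were negative. Without replicate 1 of KO1 shoots the list median was -0.49, with 8 members negative. CYP735A2 was the member that passed. RR5, a type-A response regulator that dampens cytokinin signalling, averaged 5.77 (KO1) and 5.52 (KO3) in roots, against 3.66 in Col-0 roots, and 2.54 (KO1) and 2.64 (KO3) in shoots, against 2.39 in Col-0 shoots. Its root effect passed (1.99, adjusted p = 0.0321), but not when any 1 of 10 arrays was left out (1.49, adjusted p = 0.819 without replicate 1 of Col-0 roots), and its organ difference of -1.79 did not pass (unadjusted p = 0.00159, adjusted p = 0.163). The response regulators ARR4, ARR6 and ARR15 had organ differences of -0.92, -1.04 and -0.71 that did not pass either. In shoots KO1 and KO3 had opposite signs for ARR4 (-0.24 and 0.56) and ARR15 (-0.47 and 0.19), and the same sign for ARR6 (0.03 and 0.26). Without replicate 1 of Col-0 roots the list median was -0.40 and 0 members passed.

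The ABA-induced list, of genes raised by abscisic acid and drought, had no member past the organ difference among 22 measured of 50 listed, while 19 were negative. Over all 18107 probe sets, 66 passed (0.364%) and 10179 were negative. The organ difference was lower for 5.98% and higher for 2.95% of all probe sets at an unadjusted p under 0.05. In shoots the estimates of KO1 and KO3 had opposite signs for members such as COR47 (-0.66 and 0.68), ERD10 (-0.62 and 0.70) and LTI78 (-0.82 and 0.48). They had the same sign for others, such as HB-12 (-1.55 and -1.14) and DREB2A (-0.12 and -0.18). These KO1 estimates include replicate 1 of KO1 shoots, the array that stood apart, so the opposite signs may rest on that array. The shared shoot estimate of LTI78 was -0.17 with all arrays and 0.26 without it. The list had a median of -0.90, a median shoot estimate of -0.12 and a median root estimate of 0.29. At an unadjusted p under 0.05 there were 11 lower and 0 higher, against 6 lower and 0 higher without replicate 1 of Col-0 roots and 6 lower and 1 higher without replicate 3 of Col-0 roots. HB-12, a homeodomain factor, averaged 2.68 (KO1) and 3.09 (KO3) in shoots, against 4.23 in Col-0 shoots, and 2.22 (KO1) and 2.27 (KO3) in roots, against 2.14 in Col-0 roots (organ difference -1.45, adjusted p = 0.0919). DREB2A, an activator of dehydration and heat responses, averaged 1.25 (KO1) and 1.18 (KO3) in shoots, against 1.37 in Col-0 shoots, and 3.62 (KO1) and 3.46 (KO3) in roots, against 2.46 in Col-0 roots (organ difference -1.23, adjusted p = 0.0919). Both had the same negative sign, HB-12 from its shoot effect of -1.34 (adjusted p = 0.00382), and DREB2A mainly from its root estimate of 1.08 (adjusted p = 0.062). Without replicate 1 of KO1 shoots, 4 members passed, all with negative organ differences (COR413-PM1, DREB2A, HB-12 and LTI78). In that fit COR413-PM1 had estimates of 0.20 in shoots and 1.39 in roots, and LTI78 had 0.26 and 1.62. The list median was then -0.69, and the median shoot estimate was 0.11 in place of -0.12.

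The glucosinolate list had 11 of 13 measured members negative, a median of -0.52 and a median root estimate of 0.55, with 0 past the test and 3 lower at an unadjusted p under 0.05, of which there were 0 without replicate 1 of Col-0 roots. In the autophagy list 0 of 13 passed; ATG8E, one of the ATG8 proteins that NBR1 binds, averaged 3.86 (KO1) and 3.91 (KO3) in roots, against 4.85 in Col-0 roots, and 1.78 (KO1) and 1.88 (KO3) in shoots, against 1.71 in Col-0 shoots (organ difference 1.09, adjusted p = 0.0919, and 1.11 with 0.0403 without replicate 1 of KO1 shoots). The median of the photosynthesis list was -0.25 over 11 members and 0.03 without replicate 1 of KO1 shoots, on which these genes also summed lowest (2420). The auxin list (24 measured) and the cell wall list (37 measured) held no gene past the test, with medians of -0.04 and 0.05. For comparison with the counts of these lists, 66 of all 18107 probe sets passed (0.364%) and 10179 were negative. At so low a share, 0 passing members is the usual outcome for lists of this size and is no result about them. At an unadjusted p under 0.05, 5.98% of all probe sets were lower and 2.95% higher.

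**Figure D5:**
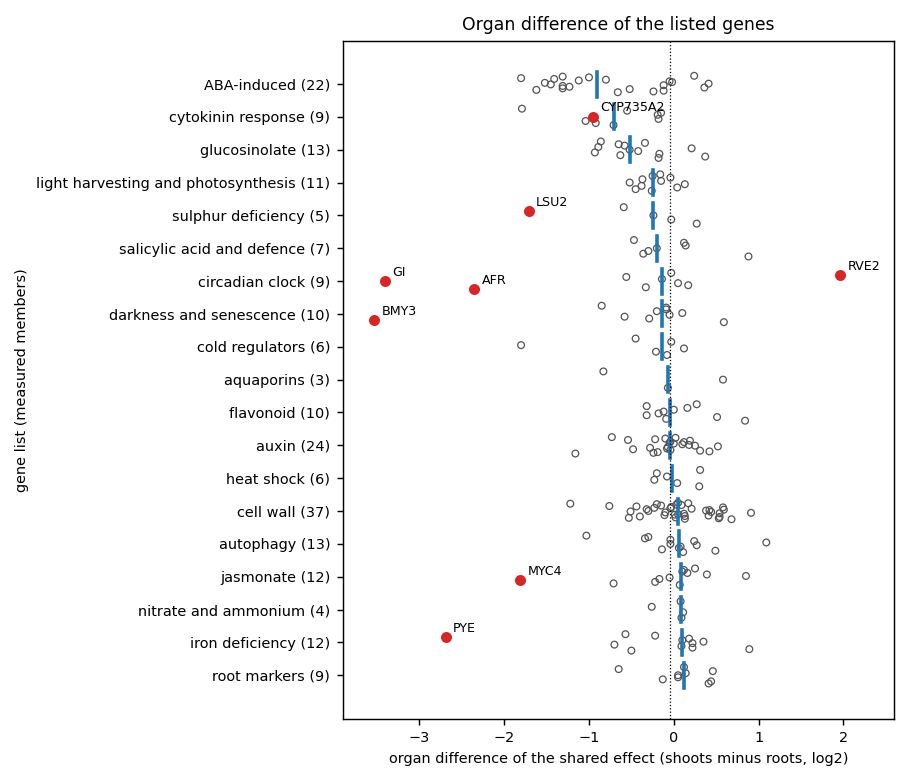
Organ difference (shoots minus roots, log2) of each measured member of the gene lists with at least 3 measured members; filled red points are the members past an adjusted p of 0.05, open points the rest, blue bars the list medians and the dotted line the median of all probe sets tested (-0.04). The ABA-induced, cytokinin response and glucosinolate lists have the lowest medians (-0.90, -0.71 and -0.52), and the clock list holds GI and AFR on the left and RVE2 on the right.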

How the data were processed

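The authors deposited RMA log2 signals of 28583 probe sets, made with Transcriptome Analysis Console and TAIR10; tool versions are not given in the sources used here. Names came from the platform table for 17504 probe sets. For 603 more they came from the study's supplementary lists of genes changed in an NBR1 overexpression line. These 603 were therefore tested because they were on those lists. NBR1, BMY3, RVE2, LSU2, CYP735A2 and GDU5 were named in this way. The 18107 named probe sets (63.3%) were tested; the 10476 without a name entered an alternative. The table held 0 columns of other samples. One limma fit (3.58.1, R 4.3.3; lmFit, eBayes) of 6 group means gave all contrasts, with Benjamini-Hochberg adjustment over the probe sets tested and a threshold of 0.05. Python 3.11.15 and matplotlib 3.10.9 drew the figures. On simulated data, 46% of planted organ differences of 1 and 87% of those of 2 (log2) were recovered.

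Named genes are NBR1, the 12 lowest and 12 highest single-gene organ differences past the threshold (5 were higher), each line at an unadjusted p under 0.05, the opposite genes, the 6 largest of each organ-limited class and list members past the threshold; other genes were chosen after their values were seen. The classes, lists and members were chosen with earlier results of these data known. A gene of a list with several probe sets was represented by the one with the highest mean. Of the platform identifiers, 16601 were found in the TAIR10.1 RefSeq table, which was used for names alone. Alternatives changed the normalization, the probe sets, the moderation, weights, blocks, the threshold and the arrays left out. Leaving out 1 Col-0 root array leaves 1, which is then assumed to vary like the other groups.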

Additional observations from a re-analysis of the deposited data

Results flagged for a closer look

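The shared effect differed between shoots and roots, by the test of the difference itself, for 66 probe sets. Among the genes named by rule, the organ difference (shoots minus roots, log2) was negative for AT5G54130 (-3.65), BMY3 (-3.53), GI (-3.40), AT1G65870 (-3.22), AT1G19490 (-3.18), AT3G09450 (-3.03), AT5G47610 (-2.97), AT1G05170 (-2.97), AT4G12000 (-2.94), PYE (-2.69), AT1G78230 (-2.60), AT1G48100 (-2.49), AFR (-2.35), MYC4 (-1.81), LSU2 (-1.71), AT1G62975 (-1.71), AT1G64590 (-1.62), AT1G20070 (-1.61), AT3G50300 (-1.34), AT4G24015 (-1.26), GDU5 (-1.14) and CYP735A2 (-0.95). It was positive for AT5G56100 (3.21), RVE2 (1.96), AT1G13650 (1.68), bZIP58 (1.55) and AT5G08520 (1.49).

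In a fit of all 28583 probe sets, 64 of the 10476 probe sets without a name (0.611%) also passed the organ difference, 61 lower and 3 higher. They may include control probe sets of the array, and their genes were not analysed here. No group had more than 3 arrays, so single arrays were not tested as outliers.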

How the results depend on the processing

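All 66 genes kept the sign of their organ difference in all 31 alternative fits in which they were tested, and 16 passed in each of these. With all arrays, 66 probe sets passed the organ difference, 274 the shoot effect and 27 the root effect, with 6 opposite, 49 shoot-limited and 8 root-limited genes. When arrays were left out singly, the counts ran from 19 to 207, 144 to 560, 1 to 159, 1 to 10, 16 to 127 and 0 to 32 in that order, and the line difference gave 0 to 1. Quantile normalization over all arrays gave 123, 445 and 97 calls and 26 root-limited genes, and within each organ 159, 490 and 116, with 86 shoot-limited and 36 root-limited genes. Scaling the arrays to one spread gave 427 shoot calls, 9 root calls and 3 root-limited genes. All probe sets of the table gave 133, 507 and 49, with 13, 89 and 18 in the classes, and platform names alone 5 root-limited genes. An unmoderated model gave 26, 152 and 7, with 3, 19 and 3. Array weights gave 166, 533 and 66, with 13, 106 and 19, and a weight for each organ 98 root calls. Chosen after seeing the data were leaving out replicate 1 of KO1 shoots and of Col-0 roots together (528 shoot calls, 11 root calls, 4 root-limited genes) and testing the 6907 probe sets above the array median in both organs (39 organ differences, 5 root calls, 26 shoot-limited and 0 root-limited genes). The methods' threshold, an unadjusted p under 0.05 with at least 1.5-fold, gave 1162, 831 and 471, and 733 for the line difference. The causes were not tested.

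The organ difference of NBR1, -1.03, was 0.20 after quantile normalization over all arrays and -2.49 (adjusted p = 0.00103) after scaling; the cause was not tested. Of 849 recomputed organ differences of named genes, 128 lost their call, 96 of them by leaving out 1 array. Replicate numbers were not used as pairs, because not every same-numbered pair correlated over 0.1: deviations in shoots and roots of one line did in 1 of 8 pairs (0.03 to 0.22), those of different lines in 4 of 9 pairs in shoots (-0.14 to 0.28), 3 of 7 in roots (-0.05 to 0.21) and 5 of 16 across organs. Among pairs of different numbers this held for 1 of 16, 4 of 18, 0 of 14 and 2 of 32, so a shared influence of the number remains possible. With the number as a fixed replicate block 72 probe sets passed (62 of the 66), and of the named genes GDU5 lost its call; with line and number as a random block 83 passed (all 66).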
